A study of Rattus norvegicus with 9 samples.

Results

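A set of 151 transcripts was higher in PC12 cells given erastin than in untreated cells and stood at nearly the same level when PQR NPs were given with the erastin. The members were chosen by their counts in the same 9 libraries that are described here, out of 41078 transcripts listed, of which 25127 had a count in any library. Levels are in CPM (a transcript's count as a share of its library's total, scaled to a common size), and differences were taken as log2 of group means with 0.5 CPM added. A member had a mean of at least 3 CPM with erastin, a log2 difference from control of at least 0.6 under each treatment, a difference between the treatments of no more than 0.3 in either direction, all 6 treated libraries above the highest control library, and a mean under 1000 CPM over all libraries. Because the rule used all 3 comparisons of the study, the levels and differences of the members describe them and test nothing.

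PC12 is a rat line from a pheochromocytoma of the adrenal medulla, used as a neuron-like cell, and the labels give its genotype as WT. The 3 groups, of 3 libraries each, were untreated cells, cells given erastin as a model of PD, and cells given erastin and PQR NPs together. None of the 9 libraries came from cells given the particles without erastin. Neither the composition of the particles nor doses and times are given in the sources used here. Library totals ran from 34772755 to 40826754 counts. The limit that a count of 0 sets, taken as 3 counts, was 0.0735 to 0.0863 CPM in a library and covers counting error only. The labels do not say whether libraries of a group were separate cultures, so the spread between them may be technical.

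Erastin blocks the antiporter that brings cystine into the cell in exchange for glutamate. Cells short of cystine make less glutathione, the cofactor with which lipid peroxides are reduced, and iron-dependent peroxidation of membrane lipids can then kill the cell by ferroptosis. Treated cells can change transcripts of many kinds, among them those of the antioxidant and amino acid stress responses. A member is a transcript about as high with erastin and PQR NPs together as with erastin alone. Whether the particles protected the cells was not tested here. Which genes the members belong to is not known here. The deposited table gives transcript IDs with no gene names, 0 of its IDs matched the gene table used here, and the 9 gene lists that had been written for this tissue and treatment could not be read. The markers of chromaffin and other cell types could not be checked for the same reason, no sequences could be shown, and members that are isoforms of 1 gene cannot be told from members of different genes. The members are therefore given by rank, either of their level with erastin or of the size of the mean log2 difference of both treatments from control, and 2 are named by ID.

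Transcripts held in this way were a small part of those that were higher with erastin. By the criteria on erastin and control alone (at least 3 CPM, a log2 difference of 0.6, all erastin libraries above all control libraries, and the upper limit on the mean level), 3224 transcripts were higher with erastin. Under PQR NPs 2922 of these (90.6%) lay more than 0.3 below their erastin level on the log2 scale, 236 (7.32%) lay within 0.3 of it and 66 (2.05%) lay more than 0.3 above it. The median difference between the treatments over the 3224 was -1.16, with an interquartile range of -1.69 to -0.70. The members were 151 of the 236. Of the other 85, a total of 78 had a difference from control under co-treatment that was under 0.6, and 7 had a co-treated library that did not lie above the highest control library.

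**Figure D1:**
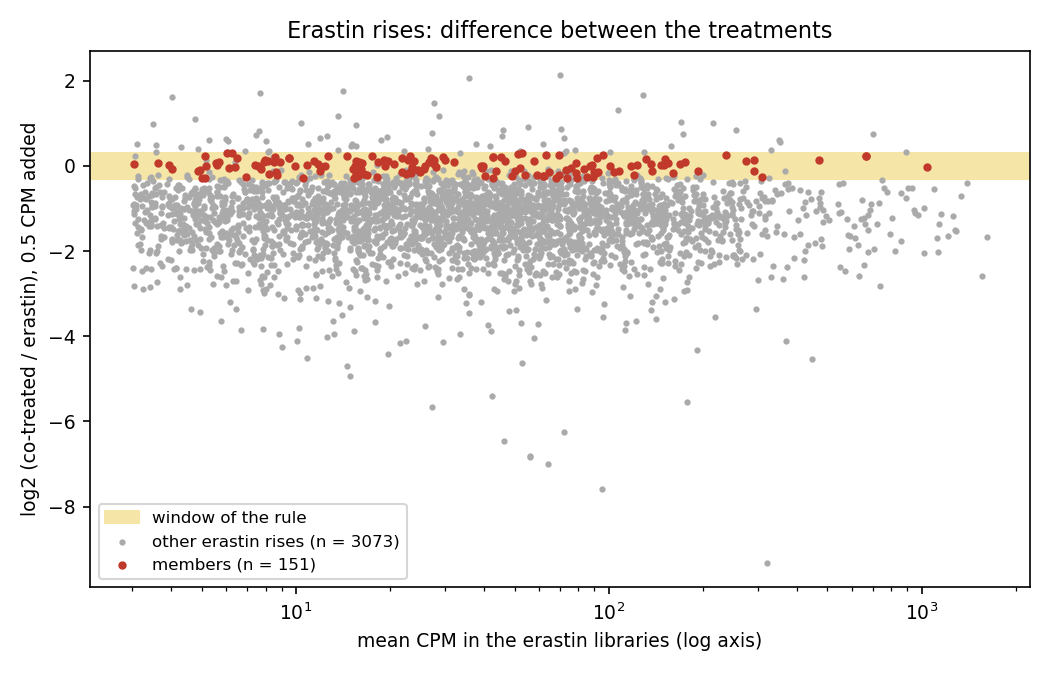
Log2 difference between co-treated and erastin libraries (vertical axis, 0.5 CPM added) against the mean CPM with erastin (horizontal log axis) for the 3224 transcripts higher with erastin. The shaded window spans 0.3 on either side of 0. The 151 members (red) lie inside it by the rule, while 2922 of the transcripts lie below it.

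The members spanned the range of levels. Of the 151, 34 had 3 to 10 CPM with erastin, 49 had 10 to 30, 42 had 30 to 100 and 26 had 100 CPM or more. They made up 5.41%, 5.65%, 3.85% and 4.08% of the erastin-raised transcripts in these tiers. By size of the difference from control with erastin, 93 members were between 0.6 and 1 on the log2 scale (8.59% of the raised transcripts of that size), 49 were between 1 and 2 (3.10%) and 9 were at 2 or more (1.60%). The window of 0.3 is the same for all sizes and is a smaller part of a large rise than of a small one, so these shares are not a test of size.

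Most differences from control were near 2-fold. The median level over members was 13.4 CPM in control, 25.8 CPM in erastin and 27.3 CPM in co-treated libraries. The median log2 difference from control was 0.91 with erastin (interquartile range 0.75 to 1.14) and 0.87 under co-treatment (0.73 to 1.16). Over the 12402 transcripts at 3 CPM or more with erastin, these medians were 0.02 and 0.02. In 43 members both differences were at least 1, in 7 both were at least 2, and in 80 both were under 1. In 20 members the lowest treated library was at least 2-fold above the highest control library.

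The most abundant member was ENSRNOT00000041033. It stood at 615, 576 and 538 CPM in the control libraries, 1068, 1022 and 1028 CPM with erastin and 1022, 1024 and 1015 CPM under co-treatment. The treated groups overlapped, and their 6 libraries were all above the controls. The means were 576 ± 38.6, 1039 ± 25.03 and 1021 ± 4.54 CPM (SD, n = 3 each), 1.80-fold and 1.77-fold above control, and the co-treated mean was 0.982 of the erastin mean.

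In CPM, the members ranked 2, 3 and 4 by level were a little higher under co-treatment than with erastin alone. On another scaling, described below, their edgeR log2 differences between the treatments were 0.17, 0.17 and 0.06. The member ranked 2 stood at 375, 371 and 367 CPM in controls, 700.3, 671 and 629 CPM with erastin and 831, 793 and 738 CPM under co-treatment. Every co-treated library was above every erastin library, with a ratio of means of 1.18. The member ranked 3 stood at 329, 328 and 284 CPM in controls, 703, 648 and 635 CPM with erastin and 789.7, 769.7 and 779 CPM under co-treatment. Here too the treated groups did not overlap, and the ratio of means was 1.18. The member ranked 4 stood at 241, 238 and 249 CPM in controls, 451, 473 and 483 CPM with erastin and 495, 526 and 522 CPM under co-treatment, again with no overlap of the treated groups and a ratio of 1.10.

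The member ranked 5 went the other way within the window. It stood at 75.9, 80.8 and 110 CPM in controls, 319.7, 295 and 311 CPM with erastin and 263, 258 and 248 CPM under co-treatment. All co-treated libraries were below all erastin libraries (ratio of means 0.830), and the co-treated mean was still 2.88-fold above control, against 3.47-fold with erastin. On the other scaling its edgeR log2 difference between the treatments was -0.34, beyond 0.3 in size.

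Among the members ranked 6 to 8 by level the treated groups overlapped in 1. The member ranked 6 stood at 145, 144 and 129 CPM in controls, 336, 288 and 251 CPM with erastin and 304, 261 and 243 CPM under co-treatment, with an SD of 42.6 CPM among the erastin and 31.4 CPM among the co-treated libraries. The member ranked 7 stood at 119, 106 and 115 CPM in controls, 299.8, 289 and 284 CPM with erastin and 307, 319 and 331 CPM under co-treatment. The member ranked 8 had the widest controls of the 8 relative to their mean, at 102, 149 and 74.6 CPM, against 268, 284 and 269.8 CPM with erastin and 299, 296 and 293 CPM under co-treatment. In the members ranked 7 and 8 the lowest co-treated library was above the highest erastin library in CPM. Their edgeR log2 differences between the treatments, on the other scaling, were 0.06 and 0.04.

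**Figure D2:**
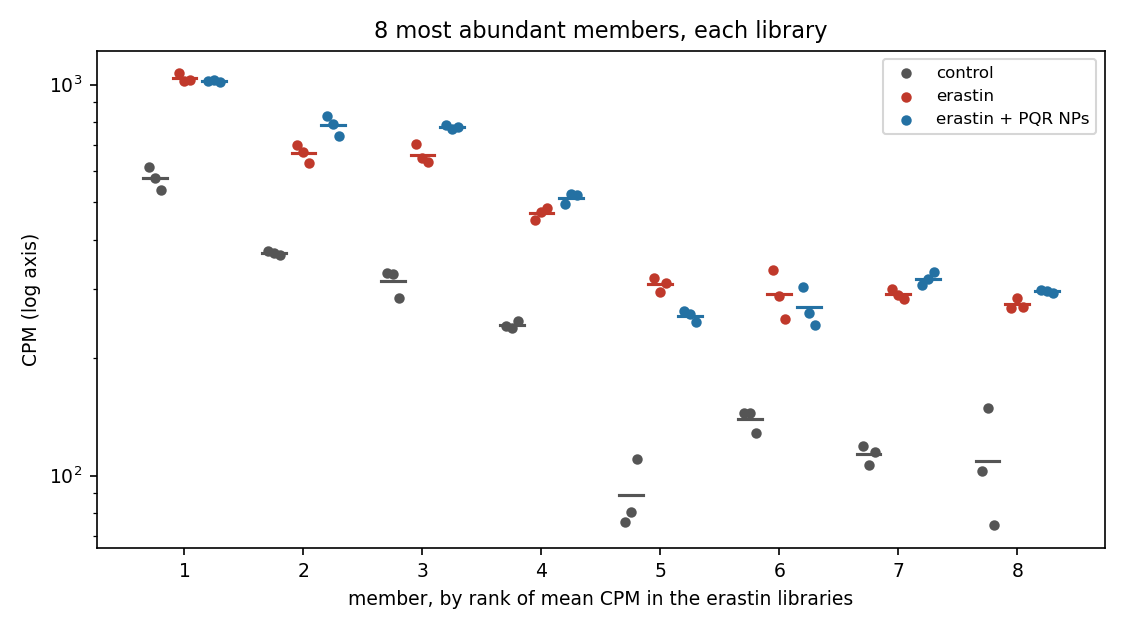
CPM (log axis) in each of the 9 libraries for the 8 members with the highest mean in the erastin libraries; points are libraries and lines are group means. The treated libraries of each member lie above its controls, as the rule requires, and the treated groups overlap in the members ranked 1 and 6.

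The largest difference from control belonged to ENSRNOT00000092372, which was close to absent in untreated cells. It had 1 count in each control library (0.0261 ± 0.000553 CPM, SD, n = 3), below the limit that a count of 0 sets. That SD comes from the library totals alone. The transcript stood at 7.18, 6.86 and 14.5 CPM with erastin and 11.1, 11.0 and 10.5 CPM under co-treatment. In all, 1012 counts with erastin and 1298 under co-treatment stood against 3 in controls. The ratio to control was 362 with erastin (95% exact interval for counting error 124 to 1760) and 416 under co-treatment (142 to 2022). Erastin replicate 3 was above all co-treated libraries, and the other 2 were below them. Without it the edgeR log2 difference between the treatments was 0.60, in place of 0.11.

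The member ranked 2 by size of difference had the widest co-treated libraries of all members relative to their mean. It stood at 4.08, 6.00 and 7.56 CPM in controls, 52.3, 35.2 and 40.4 CPM with erastin and 24.6, 61.1 and 18.9 CPM under co-treatment. Co-treated replicate 2 was above all erastin libraries, and the other 2 were below them. Its place within the window, at -0.287 on the scale of the rule, thus rests on co-treated replicate 2. The edgeR log2 difference between the treatments, on another scaling described below, was -0.36 with all libraries. Without co-treated replicate 2 it was -1.05.

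The members ranked 3 and 4 by size were low in every group. The member ranked 3 stood at 2.72, 1.303 and 2.67 CPM in controls, 12.6, 14.7 and 19.4 CPM with erastin and 19.1, 14.3 and 17.2 CPM under co-treatment. The member ranked 4 stood at 0.426, 0.588 and 0.995 CPM in controls, 3.87, 6.06 and 7.07 CPM with erastin and 5.17, 6.17 and 6.88 CPM under co-treatment. In both the treated groups overlapped, and the folds over control were 6.97 and 7.55 for the member ranked 3 and 8.47 and 9.07 for the member ranked 4 (erastin and co-treatment).

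Of the members ranked 5 to 8 by size, the treated groups overlapped in the members ranked 5 and 7. The member ranked 5, which is also the 11th by level, stood at 34.7, 35.1 and 32.1 CPM in controls, 199, 171 and 157 CPM with erastin and 213, 162 and 187 CPM under co-treatment. The member ranked 7 stood at 6.13, 6.57 and 5.44 CPM in controls, 28.0, 26.7 and 25.3 CPM with erastin and 28.5, 26.0 and 31.3 CPM under co-treatment. Both were at about the same fold over control under each treatment, 5.17 and 5.50 for the member ranked 5 and 4.41 and 4.72 for the member ranked 7.

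The members ranked 6 and 8 had treated groups that did not overlap, in opposite directions. The member ranked 6 stood at 10.6, 10.2 and 11.1 CPM in controls, 46.2, 55.8 and 51.9 CPM with erastin and 63.4, 64.1 and 60.7 CPM under co-treatment. The member ranked 8 stood at 13.2, 16.9 and 10.8 CPM in controls, 56.8, 66.4 and 63.8 CPM with erastin and 48.8, 54.6 and 55.9 CPM under co-treatment. The co-treated mean was 1.22 times the erastin mean in the first and 0.852 of it in the second. Their edgeR log2 differences between the treatments, on the other scaling, were 0.22 and -0.30.

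**Figure D3:**
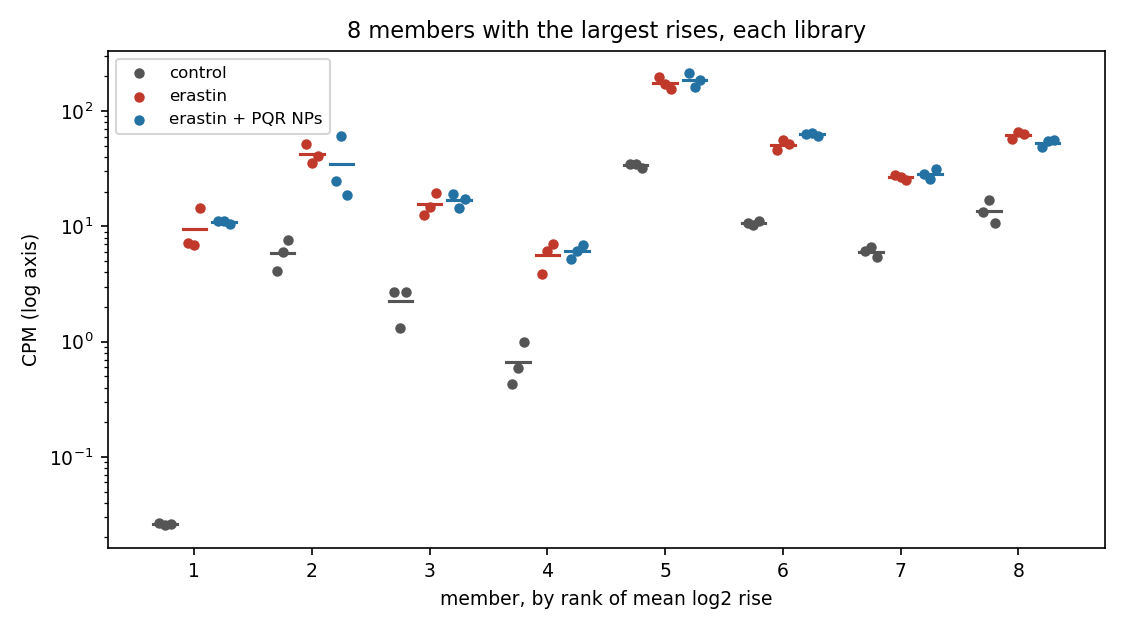
CPM (log axis) in each of the 9 libraries for the 8 members with the largest mean log2 difference from control; points are libraries and lines are group means. The first member has 1 count in each control library, and the co-treated libraries of the second run from 18.9 to 61.1 CPM.

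No member was at 0 in all control libraries, 1 was at 0 in a single control library, and none was at 0 in a treated library. The lowest count of a member in any treated library was 84, and the median of the members' lowest treated counts was 805. The coefficient of variation between libraries (SD over mean, n = 3) had a median over members of 9.95% among control, 11.1% among erastin and 8.16% among co-treated libraries, against 11.3%, 11.3% and 8.75% over the 12402 transcripts at 3 CPM or more with erastin. It was over 30% in 12 members among control, in 11 among erastin and in 5 among co-treated libraries. The 15 members above 30% under either treatment had 3.61 to 57.9 CPM with erastin.

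Together the members took about 1% of the counts in treated cells. Their share was 0.528%, 0.522% and 0.498% in the control libraries, 1.12%, 1.02% and 1.01% with erastin and 1.09%, 1.07% and 1.05% under co-treatment. The means were 0.516% ± 0.0160, 1.05% ± 0.0596 and 1.07% ± 0.0246 (SD, n = 3 each), 2.03-fold and 2.07-fold above control, and the difference between the treatments was smaller than the spread between erastin libraries. The 5 members of highest mean level carried 31.3% of the sum in control, 29.9% in erastin and 32.0% in co-treated libraries. Without these 5 the shares were 0.354%, 0.736% and 0.727%.

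Erastin replicate 1 stood above the other 2 erastin libraries in many of the members. It was the highest of the 3 erastin libraries in 93 members (61.6%), against 44.7% of the 12402 transcripts. Replicates 2 and 3 were the highest in 32 and 26 members. Its median log2 deviation from the erastin mean was 0.08 over the members and 0.03 over the 12402 transcripts. In controls and under co-treatment replicate 1 was the highest in 62 (41.1%) and 71 (47.0%) of the members, against 38.1% and 40.3% of the transcripts. By the rule applied to the 8 libraries without erastin replicate 1, 115 of the 151 members were found again, with 44 further transcripts. Leaving out any other single library found 127 to 143 of the members again, with 23 to 40 further transcripts.

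**Figure D4:**
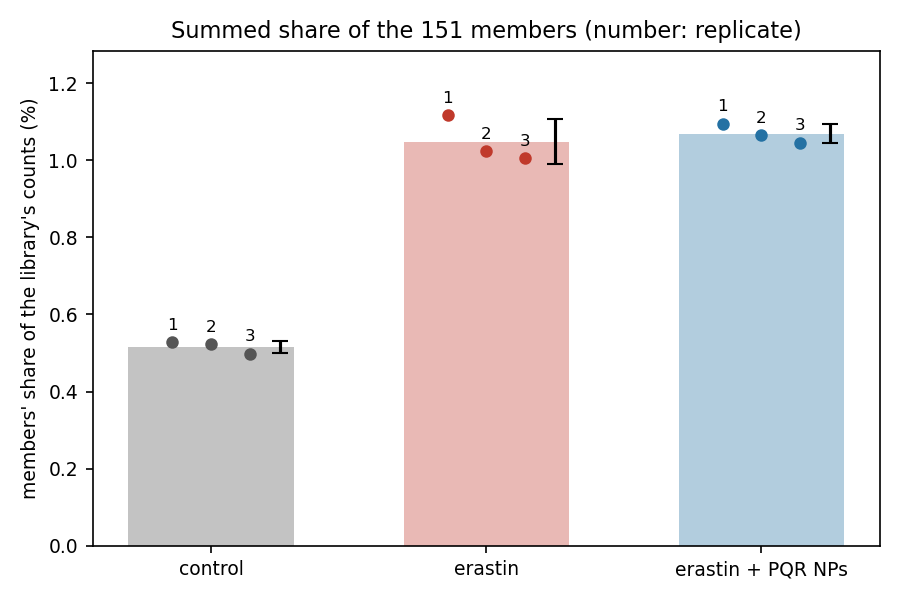
Summed counts of the 151 members as a percentage of each library's total; points are libraries with their replicate number, bars are group means and error bars are the SD (n = 3). Controls lie at 0.498% to 0.528% and treated libraries at 1.01% to 1.12%, with erastin replicate 1 the highest.

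How far the members differed between the treatments depended on how libraries were scaled. On library totals, the scale of the rule, 75 members were higher and 76 lower under co-treatment than with erastin, and 57 differed by no more than 0.1 on the log2 scale. The libraries of the treated groups overlapped in 123 members (81.5%), against 29.3% of the 12402 transcripts, a share that the rule itself raises. They did not overlap in 14 members that were higher and 14 that were lower under co-treatment. With TMM scaling (edgeR's trimmed mean of M-values, which adjusts library sizes so that most transcripts do not differ), 55 members were fitted above 0 and 96 below, with a median of -0.07. With upper quartile scaling 84 were above 0 and 67 below, with a median of 0.01. The median over all tested transcripts moved from -0.02 with TMM to 0.05 with library totals and 0.07 with upper quartile scaling. Whether a member sits slightly above or slightly below its erastin level is therefore set in part by the scaling.

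Fitted over the whole table with edgeR's quasi-likelihood test and TMM scaling, all 151 members passed the filter on low counts. Higher with erastin than in control were 147 members, where 26.6% of the 17123 transcripts tested were called higher. Under co-treatment 127 members were called higher than control, where 7.7% of all tested transcripts were. Between the treatments 9 members were called, where 51.2% of all tested transcripts were called in either direction. Called higher than control with both treatments and not between them were 118 members, where 2.19% of all tested transcripts, 375 in number, were. The 118 are 31.5% of those 375. As the rule chose the members on the same contrasts, these counts say how the rule and the test overlap and nothing more.

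The members that the test did not call had wider spreads between libraries than those it called. The 4 members not called with erastin were also among the 24 not called under co-treatment, and had 3.61 to 11.8 CPM with erastin. The 24 had a median coefficient of variation of 18.7% among control, 24.5% among erastin and 19.0% among co-treated libraries and a median level of 15.5 CPM with erastin, while the 127 called members had medians of 9.12%, 8.51% and 7.39% and of 29.9 CPM. The median log2 difference from control under co-treatment was 0.69 in the 24 and 0.91 in the 127. The member at 0 in 1 control library was among the 4, at 1.09, 2.02 and 0 CPM in controls, 5.68, 6.12 and 2.82 CPM with erastin and 4.17, 5.19 and 3.93 CPM under co-treatment.

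The 9 members called between the treatments were all called against control as well, and their differences were small. With TMM scaling 2 were higher under co-treatment, among them the member ranked 2 by level, and 7 were lower, among them the member ranked 5; of all tested transcripts, 25.3% were called higher and 25.9% lower. On the scale of the rule the 2 were 0.24 and 0.25 above their erastin level and the 7 were 0.14 to 0.27 below it. None of the 7 was called with library totals or upper quartile scaling, where 6 and 7 members were called and all of them were higher under co-treatment, nor with TMM and no filter on low counts, where 6 were called and all were higher. Of all tested transcripts these settings called 27.8%, 28.6% and 18.1% higher and 23.8%, 23.5% and 15.9% lower. In other fits lower calls remained. DESeq2 called all 9 again, with 5 members higher and 7 lower in all. With only the 6 libraries compared 6 were higher and 8 lower, and with the replicate number as a block 2 and 9. In either direction these fits called 9225 of 25127, 8838 of 16597 and 8541 of 17123 transcripts. Without erastin replicate 1, 3 members were called, all higher, and 1 of them was among the 9. Without co-treated replicate 1, 2 or 3, the called members were 4 lower, 2 lower or 2 higher. Of these, 1, 1 and 2 were among the 9. In either direction these 4 fits called 8461 of 17594, 8019 of 17620, 7589 of 17623 and 7823 of 17644 transcripts. A member that was not called between the treatments was not shown by that to be alike under both.

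**Figure D5:**
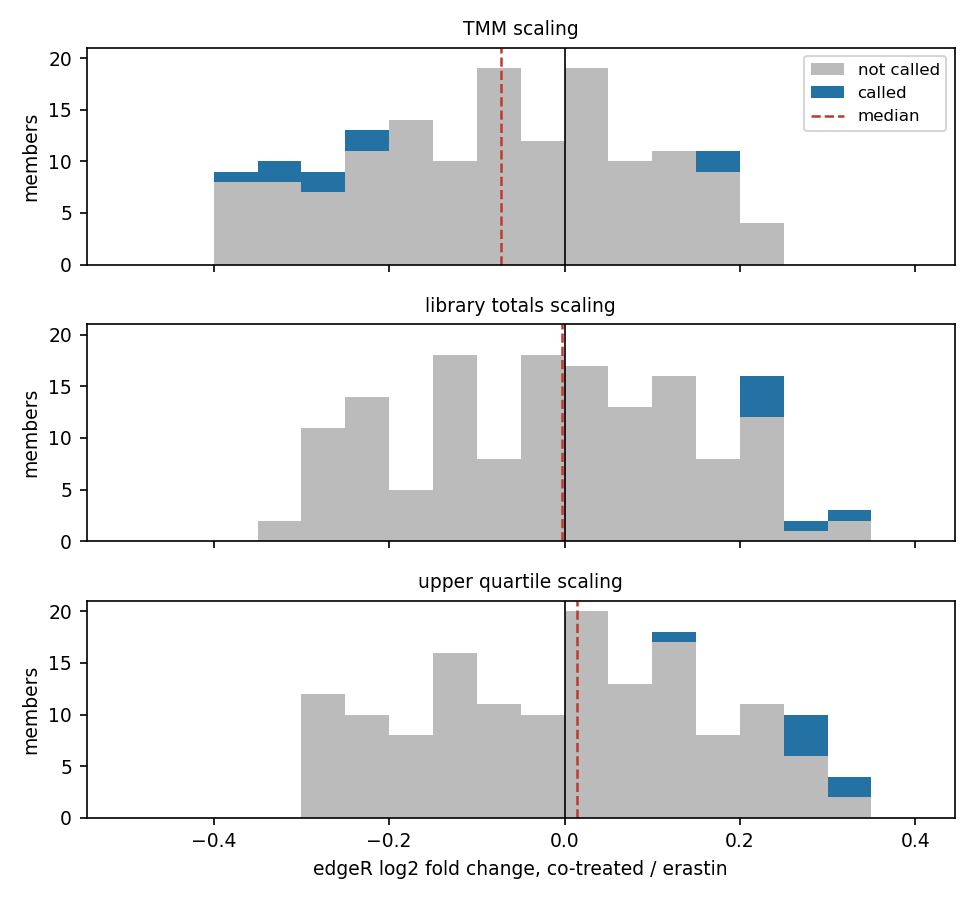
Number of members by edgeR log2 fold change of co-treated over erastin libraries under 3 scalings of the same counts; blue marks members called at an adjusted p of 0.05, the solid line is 0 and the dashed line is the median over the 151 members. With TMM 2 called members are above 0 and 7 below; with library totals 6 and with upper quartile scaling 7 are above 0 and none below.

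Many transcripts failed the rule by a single criterion, at any distance from its limit, and the nearest of them lay just beyond it. Failing it only by the difference between the treatments were 340 transcripts, 277 lower and 63 higher under co-treatment. Another 68 failed only by the difference of the co-treatment from control, 52 by an overlap of control and treated libraries, 44 by the level with erastin, 32 by the difference of erastin from control and 3 by the upper limit on the mean level. The 4 members nearest to the limit on the treatment difference were at 0.294 to 0.29997 and the 4 nearest transcripts beyond it at 0.301 to 0.303. For the difference of erastin from control these values were 0.603 to 0.611 inside and 0.582 to 0.597 outside, and for the co-treatment 0.601 to 0.609 and 0.582 to 0.596. For the level with erastin they were 3.05 to 4.02 CPM and 2.76 to 2.999 CPM, and for the mean over all libraries 409 to 879 CPM inside and 1001 to 1286 CPM for the 3 outside. For the gap between the lowest treated and the highest control library they were 0.01 to 0.08 and -0.07 to 0 on the log2 scale. With 1 library left out at a time, 70 of the 151 members (46.4%) met the rule in all 9 reduced tables, and each member met it in at least 4 of them. The 70 differed between the treatments by a median of 0.109 in size on the log2 scale, and the other members by 0.177.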

How the data were processed

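Raw counts per Ensembl transcript were deposited by the authors in 1 table of 9 library columns. HISAT2 2.2.1 and the build Rnor 6.0 are named in the submitters' processing notes, and the counting program, annotation release and strand setting were not given there. Reads that fit several isoforms may have been divided among them, which can move single transcripts. Poly(A) RNA was sequenced as paired ends, per the labels' protocols.

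The members and lists were chosen with earlier results of these data known. CPM used column sums. The count test was edgeR 4.0.16 (quasi-likelihood, TMM, filter by group, R 4.3.3) on all 9 libraries, with Benjamini-Hochberg adjustment over 17123 transcripts at 0.05. Its code was tried on simulated counts with a single fixed spread and far fewer changed transcripts than were called here. That trial does not show the error rate in these data. DESeq2 1.42.0, other scalings, filters, thresholds and left-out libraries were alternatives. Replicates differed beyond sampling noise (chi-square per degree of freedom 31.7 to 71.4). Members described singly were the 8 highest in level with erastin and the 8 with the largest mean log2 difference from control; members with no count in any control were to follow, and there were none. The member at 0 in 1 control library, the 9 called between the treatments and the uncalled ones were singled out after their values were seen.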

Additional observations from a re-analysis of the deposited data

How the results depend on the processing

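The members called higher than control numbered 128 to 150 with erastin and 89 to 144 under co-treatment over the alternatives run, in place of 147 and 127. Those called with both and not between the treatments numbered 89 to 132 in place of 118. As the rule chose on these contrasts, the counts are no test of stability. At 0.05 the alternative fits called 8139 of 17667 to 9551 of 25127 transcripts in either direction with erastin. They called 1325 of 17623 to 3965 of 25127 under co-treatment against control, and 7589 of 17623 to 9225 of 25127 between the treatments. Such counts at 0.01 are not given here. Called between the treatments were 14 members in place of 9 with only the 6 libraries compared, 0 at an edgeR adjusted p of 0.01 (2 with DESeq2; 21 and 19 had an unadjusted p under 0.05), and 2 to 13 with 1 library left out. With the replicate number as a replicate block the counts were 145, 121 and 11. In either direction that fit called 8884, 2723 and 8541 of 17123 transcripts. Same-numbered libraries correlated at -0.0126 to 0.111 in their deviations, and differently numbered ones at -0.108 to 0.0757. The highest values, 0.111 and 0.0936, were between libraries of replicate 1. The numbers were not taken to pair the libraries, and pairing was not tested. The rule found 136 transcripts with TMM library sizes, 119 of them members, and 43 with both differences at least 1. With 1 library left out it found 150 to 183. Without the 5 most abundant members the summed shares were 0.354%, 0.736% and 0.727% (control, erastin, co-treated). With TMM sizes the co-treated share of all members was 1.04% and lay below the erastin share on those sizes. On library totals the co-treated share of all members lay above the erastin share. Each of the 151 members was fitted above control in both comparisons under each alternative fit. The rule places all 6 treated libraries of a member above its controls, so this outcome was largely fixed in advance.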
